A study of Mus musculus with 10 samples.

Results

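Insulin, IGF and PI3K-AKT signaling genes, 9 in all, were followed in the hearts of mice heterozygous for a *Rit1* allele that encodes a pathogenic RIT1 variant. They are the receptors *Insr* and *Igf1r*, the ligand *Igf1*, the receptor substrates *Irs1* and *Irs2*, the PI3K subunits *Pik3ca* and *Pik3r1*, and the kinases *Akt1* and *Akt2*. The 9 genes were chosen by symbol as the main steps of this pathway, with earlier results of these data known. All 9 were found among the 54532 genes measured. Each of the 10 hearts came from a *Rit1* M90I/+ mouse. There were 5 hearts of vehicle controls and 5 of mice in the MEKi group, treated daily from the age of 4 weeks with 1 mg/kg of trametinib, an inhibitor of the kinase MEK, over 20 weeks. The allele is a conditional one that a Cre deleter driven by the cytomegalovirus promoter had switched on, so it was not restricted to cardiac cells. No heart without the allele was part of this comparison, so the values compare treatment with vehicle among mutant hearts only. Poly(A)-selected RNA of cardiac tissue was sequenced, and a level is given as FPKM, the number of fragments scaled by gene length and library size, which allows genes of different length to be set side by side.

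Insulin and IGF1 bind related receptor tyrosine kinases, which phosphorylate the IRS adaptors. The IRS proteins recruit PI3K, a lipid kinase made of a catalytic and a regulatory subunit, and its lipid product brings AKT to the membrane, where AKT is activated by phosphorylation. In heart muscle this pathway drives physiological growth and glucose uptake, and it shares its receptors with the RAS-MAPK pathway that RIT1 and MEK belong to. Most of its control is exerted on proteins, through phosphorylation, which transcript levels do not measure.

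The fragments counted in genes numbered 13647167 to 18474002 per heart (median, 15215992). The mitochondrial share was 24.7 to 35.0% of fragments for vehicle hearts, compared with 24.0 to 28.7% for MEKi-treated ones. The 8 cardiomyocyte markers examined, such as *Myh6* and *Tnnt2*, were high in every heart, with summed levels between 17115 and 24874 FPKM. The split of the hearts by sex-linked transcripts was the same as the split by treatment. *Xist*, which is transcribed from the inactive X chromosome of females, averaged 5.86 FPKM in the MEKi group and 0.0013 FPKM in the vehicle group, whereas the Y-linked gene *Ddx3y* averaged 11.2 FPKM in the vehicle group and was at 0 in every MEKi-treated heart. The study included males and females, and the labels give no sex per heart, so treatment and these sex-linked differences cannot be told apart in any value below.

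None of the 9 genes was called between MEKi-treated and vehicle hearts. Of the 8 members with a mean of at least 0.5 FPKM, 0 had an adjusted p under 0.05 with limma, against 0.0794% of the 12602 genes tested (10 genes, 0.0238% higher and 0.0555% lower in the MEKi group). The 10 called genes included 4 sex-linked ones, *Xist* and *Ddx3y* among them. When X, Y and mitochondrial genes were left out, 0 of 12178 genes were called. *Igf1*, whose level was lower in the MEKi group, was the only member with an unadjusted p under 0.05, which gives 1 of 8 beside 7.62% of all genes tested (3.67% higher and 3.94% lower). In log2 fold change, 6 of the 8 tested members were above 0 and 2 were below, with a median of 0.12, whereas 52.1% of all genes tested were above 0 and the median of all genes was 0.01. No member separated the groups without overlap, as 1.64% of all genes tested did (0.794% higher and 0.849% lower in the MEKi group). *Irs1*, with a mean of 0.396 FPKM, fell under the limit for testing and is described by its values.

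**Figure D1:**
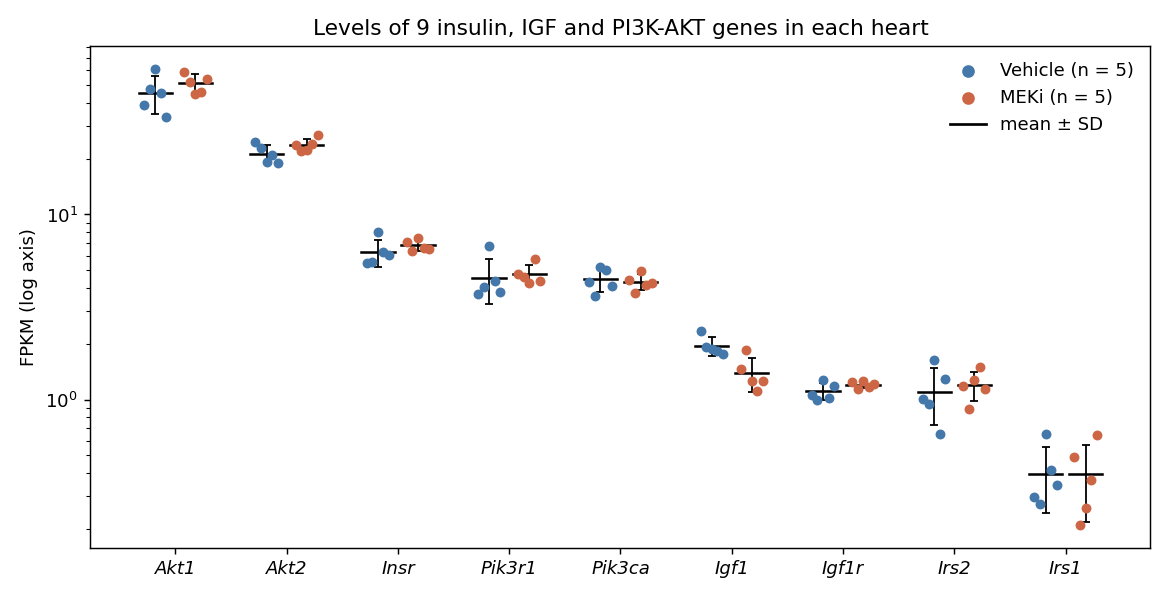
FPKM of the 9 genes in each of 5 vehicle hearts and 5 MEKi-treated hearts, on a log axis, with lines at the mean and bars of 1 SD. Levels run from *Akt1*, at about 48.3 FPKM over all hearts, to *Irs1*, at 0.396 FPKM, and the groups overlap for every gene.

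The levels of the members differed far more between genes than between groups. In FPKM over all 10 hearts, *Akt1* averaged 48.3 ± 8.63 (SD, n = 10), *Akt2* 22.6 ± 2.41 and *Insr* 6.53 ± 0.809. The PI3K subunits followed, with *Pik3r1* at 4.64 ± 0.925 and *Pik3ca* at 4.39 ± 0.530, and these neighbours did not differ beyond their spread, since *Pik3r1* was the higher one in 6 of 10 hearts. *Igf1* was at 1.67 ± 0.383 FPKM, *Igf1r* at 1.16 ± 0.0991 and *Irs2* at 1.15 ± 0.293. The ranges of *Igf1r* and *Irs2* overlapped and their order held in 6 of 10 hearts, and that of *Igf1* over *Igf1r* held in 8 of 10. The ranges of *Akt1* and *Akt2*, of *Akt2* and *Insr*, and of *Pik3ca* and *Igf1* were apart. *Insr* was above *Pik3r1* and *Irs2* above *Irs1* within each of the 10 hearts, although the ranges over hearts overlapped.

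*Igf1* encodes insulin-like growth factor 1, a secreted growth factor made mainly in liver under growth hormone and locally in other tissues (chromosome 10, 87858265 to 87937042, plus strand). In vehicle hearts 1 to 5 its level was 2.35, 1.92, 1.87, 1.83 and 1.77 FPKM, and in MEKi-treated hearts 1 to 5 it was 1.46, 1.85, 1.26, 1.11 and 1.27 FPKM. Of the 5 MEKi-treated hearts, 4 were below every vehicle heart, and MEKi heart 2 lay within the vehicle range, so the groups overlapped. For this and the later counts of 4 of 5 hearts, no share over all genes tested is given. The group means were 1.95 ± 0.229 FPKM for vehicle and 1.39 ± 0.287 FPKM for MEKi (SD, n = 5 each). The log2 difference was -0.47 (SE 0.15, 95% interval -0.79 to -0.15), which is a fold of 0.720 with an interval from 0.577 to 0.899. Its unadjusted p was 0.00745, the 201st lowest of all genes tested, and its adjusted p with limma was 0.461. Under the alternatives run, the adjusted p of *Igf1* lay between 0.357 and 0.717. These values rest on 183 to 391 fragments per heart.

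Heart tissue holds several cell types, and *Igf1* is known to be expressed by macrophages and fibroblasts of the heart, so markers of these cells were examined beside it. All 8 macrophage markers had a log2 fold change below 0 (median, -0.36), with none called. Of these markers 3 had an unadjusted p under 0.05 with limma, beside 7.62% of all genes tested, of which 52.1% were above 0. The summed level of the 8 ranged from 214 to 386 FPKM in vehicle hearts and from 188 to 232 FPKM in MEKi-treated hearts. Vehicle heart 5 had the highest sum, 386 FPKM, with the lowest vehicle level of *Igf1*, 1.77 FPKM. None of the 8 was at 0 in any heart. The 8 fibroblast markers were divided, 4 above and 4 below 0 (median, 0.04), with sums of 229.6 to 346 FPKM in vehicle and 243 to 321 FPKM in MEKi-treated hearts. In a bulk tissue sample, fewer cells of a type and less RNA per cell cannot be told apart.

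*Igf1* was also set against those sums within each heart. Each sum is led by its most abundant markers, *C1qa* and *C1qb* for macrophages and *Dcn* and *Dpt* for fibroblasts, named for their levels. Log2 fold changes within the fibroblast list ran from -0.38 for *Col1a1* to 0.40 for *Lum*, so the ratios depend on which markers are summed. The log2 ratio of *Igf1* to the summed macrophage markers was -7.13 ± 0.390 in vehicle and -7.26 ± 0.268 in MEKi-treated hearts (SD, n = 5 each), with overlapping groups, whereas 0.0873% of all genes tested were lower in the MEKi group without overlap in this ratio. Its ratio to the fibroblast sum was -7.13 ± 0.365 and -7.68 ± 0.261, again with overlap, where 0.825% of all genes tested were lower without overlap. Its ratio to the summed cardiomyocyte markers was -13.36 ± 0.0313 in vehicle and -13.96 ± 0.329 in MEKi-treated hearts, and here each MEKi-treated heart was below each vehicle heart, as were 1.02% of all genes tested in the same ratio. Whether a change in macrophages takes part in the *Igf1* values was not tested. MEKi heart 2, the highest MEKi-treated heart for *Igf1*, also had the atrial light chain *Myl7* at 519.5 FPKM, against 1.58 to 5.54 FPKM in the other MEKi-treated hearts. Vehicle heart 4 had *Myl7* at 615 FPKM with *Igf1* at 1.83 FPKM, and vehicle heart 5 had *Myl7* at 258 FPKM with *Igf1* at 1.77 FPKM, the lowest vehicle value. The part of atrial tissue in these values was not tested.

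**Figure D2:**
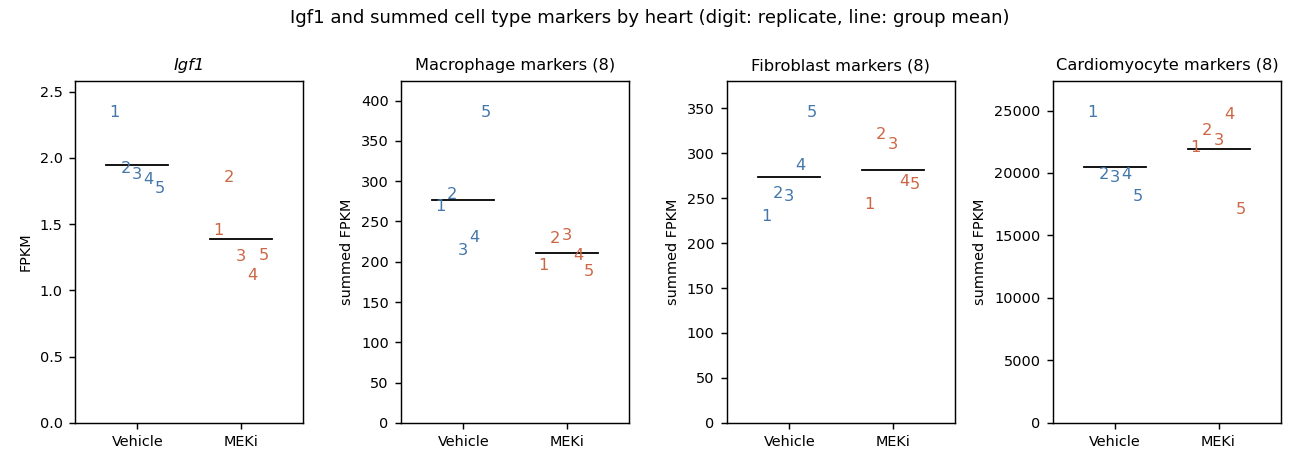
*Igf1* in FPKM and the summed FPKM of 8 macrophage, 8 fibroblast and 8 cardiomyocyte markers in each heart. Digits give the replicate number and lines the group mean of 5 hearts. *Igf1* is between 1.11 and 1.85 FPKM in MEKi-treated hearts and between 1.77 and 2.35 FPKM in vehicle hearts, and all 3 marker sums overlap between groups.

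The genes whose pattern was most like that of *Igf1* over the 10 hearts, after the group means were subtracted, were *C920006O11Rik* (Pearson r = 0.91) and the interferon-induced GTPase gene *Iigp1* (r = 0.89) among the 10704 genes that averaged 1 FPKM or more. Such values describe the same 10 libraries and carry no test.

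The list of ligands and IGF-binding proteins, *Igf1* included, gave 4 genes above and 5 below 0 among 9 tested (median, -0.03), with 0 called by limma and 3 at an unadjusted p under 0.05, *Igf1*, *Igfbp3* and *Stc2*. Such a p was found for 7.62% of all genes tested. The other ligands fell under the limit for testing. The insulin genes *Ins1* and *Ins2* were at 0 or, in 1 heart, near it, and *Igf2*, the fetal growth factor, averaged 0.404 FPKM in vehicle and 0.508 FPKM in MEKi-treated hearts. *Igfbp3*, which encodes the main carrier of IGF1 in serum, was at 12.3 ± 1.83 FPKM in vehicle and 16.1 ± 3.31 FPKM in MEKi-treated hearts, with a log2 difference of 0.37 and an adjusted p of 0.619 with limma. *Stc2*, which encodes an inhibitor of the proteases that release IGFs from binding proteins, was at 1.95 ± 0.244 and 2.49 ± 0.305 FPKM (log2 difference, 0.34, adjusted p = 0.563 with limma). For both genes 4 of 5 MEKi-treated hearts exceeded the highest vehicle heart, again with no share over all genes tested to set beside it.

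*Insr* encodes the insulin receptor (chromosome 8, 3122061 to 3279617, minus strand). Its level was 5.44, 5.57, 8.02, 6.24 and 6.003 FPKM in vehicle hearts 1 to 5 and 7.12, 6.33, 7.43, 6.63 and 6.51 FPKM in MEKi-treated hearts 1 to 5. Each MEKi-treated heart was above the median of the vehicle hearts, but vehicle heart 3 was above all of them. The log2 difference was 0.13 (SE 0.11, 95% interval -0.12 to 0.38), with an adjusted p of 0.820 with limma.

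*Igf1r* encodes the IGF1 receptor (chromosome 7, 67952827 to 68233668, plus strand). It was at 1.06, 1.00, 1.27, 1.02 and 1.18 FPKM in vehicle hearts, and at 1.24, 1.13, 1.26, 1.17 and 1.21 FPKM in MEKi-treated hearts. The MEKi-treated hearts lay within a narrow band inside the vehicle range, with an SD of 0.0511 against 0.117 FPKM. The log2 difference was 0.12 (SE 0.12, 95% interval -0.16 to 0.39, adjusted p = 0.866 with limma).

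The balance of the receptors was similar in the groups. *Insr* made up 84.9% of the summed FPKM of *Insr* and *Igf1r* in vehicle hearts (SD 1.25, n = 5) and 84.9% in MEKi-treated hearts (SD 0.448, n = 5). Their log2 ratio lay between 2.34 and 2.65 in vehicle and between 2.42 and 2.56 in MEKi-treated hearts. *Igf2r*, which encodes the receptor that clears IGF2, was higher than either, at 9.39 ± 1.09 and 10.8 ± 0.738 FPKM, with a log2 difference of 0.20 and an adjusted p of 0.664 with limma. The genes most like *Insr* over the hearts were *Rps6kc1* (r = 0.96) and *Cobll1* (r = 0.94), and *Igf1r* was most like *Ptpn21* (r = 0.95).

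The DNA before the start of *Igf1r* is shown because it was the richest in CG pairs among the members, and such pairs mark CpG-island promoters. RefSeq promoter entries (GRCm38.p6) matched 8 of the 9 members, all but *Insr*, with 13 windows of 250 bases before an annotated start. The *Igf1r* window, chr7:67952007-67952256 on the plus strand, lies outside the gene as annotated in the files and holds 42 CG pairs, printed in capitals:
Igf1r: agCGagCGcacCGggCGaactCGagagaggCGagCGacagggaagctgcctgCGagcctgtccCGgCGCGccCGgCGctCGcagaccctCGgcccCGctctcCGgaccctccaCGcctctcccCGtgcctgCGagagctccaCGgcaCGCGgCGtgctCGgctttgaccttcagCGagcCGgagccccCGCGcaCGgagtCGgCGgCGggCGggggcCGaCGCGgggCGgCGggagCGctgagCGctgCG

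Over all 32851 promoter windows the median was 6 CG pairs, and 99.3% held at most as many as *Igf1r*. The *Igf1* window held 5, but it ends 2845 bases inside the gene as annotated in the files and overlaps an exon of other *Igf1* transcripts. The *Irs2* window held 34, that of *Irs1* 28 and that of *Pik3ca* 19. The 4 windows of *Akt2* held 10, 0, 5 and 2, and the last 3 lie inside the gene.

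*Irs1* and *Irs2* encode adaptors that the activated receptors phosphorylate. *Irs2* (chromosome 8, 10984681 to 11008458, minus strand) was at 1.01, 0.943, 1.64, 0.647 and 1.29 FPKM in vehicle hearts 1 to 5 and at 1.19, 0.894, 1.27, 1.49 and 1.14 FPKM in MEKi-treated hearts 1 to 5. Vehicle hearts 3 and 4 were the highest and lowest of all 10. The log2 difference was 0.15 (SE 0.22, 95% interval -0.34 to 0.63, adjusted p = 0.912 with limma), and without vehicle heart 4 it was -0.01.

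*Irs1* (chromosome 1, 82233101 to 82291416, minus strand) was at 0.299, 0.273, 0.654, 0.416 and 0.346 FPKM in vehicle hearts, and at 0.491, 0.210, 0.261, 0.367 and 0.640 FPKM in MEKi-treated hearts. With 33 to 92 fragments per heart it was the shallowest member, and its lowest and highest values in each group spanned more than any difference between the groups. When genes of any level were fitted, its log2 difference was -0.03 (SE 0.30, 95% interval -0.70 to 0.63, adjusted p = 0.982 with limma). A 1.5-fold difference in either direction lies within that interval.

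Within the IRS family, *Irs2* took 63.9% of the summed FPKM in vehicle and 64.2% in MEKi-treated hearts, and *Irs1* took 22.9% and 20.7%. *Irs3* accounted for the remainder, and *Irs4* was at 0 in every heart. The genes most like *Irs2* were *D6Wsu163e* (r = 0.97) and *Rab35* (r = 0.94), and those most like *Irs1* were the ubiquitin ligase gene *Itch* (r = 0.96) and *Asah2* (r = 0.96).

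Of the 12 receptor adaptor genes tested, *Irs2* included, 11 had a log2 fold change above 0 and 1 below (median, 0.19), with 0 called by limma and 4 at an unadjusted p under 0.05, beside 52.1% of all genes tested above 0 and 7.62% with such a p. These 4 were *Grb14*, *Frs2*, *Gab1* and *Grb2*, the last pair named after their values were seen. *Grb14*, which encodes an inhibitor of the insulin receptor that is abundant in heart, was at 12.9, 13.7, 15.5, 12.6 and 12.7 FPKM in vehicle hearts, and at 18.4, 14.3, 15.7, 19.1 and 16.2 FPKM in MEKi-treated hearts (log2 difference, 0.31, adjusted p = 0.504 with limma). For *Grb14*, 4 of 5 MEKi-treated hearts were above every vehicle heart. *Gab1*, a docking protein gene that links receptors to PI3K and to the phosphatase SHP2, was above every vehicle heart in 4 of 5 MEKi-treated hearts (log2 difference, 0.27, adjusted p = 0.517 with limma). *Grb2*, which encodes the adaptor that brings SOS to receptors, had a log2 difference of 0.20 and *Frs2*, an FGF receptor substrate, one of 0.28. *Grb10*, a paralog of *Grb14*, stood at 0.30 with an adjusted p of 0.696 with limma.

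*Pik3ca* encodes the alpha catalytic subunit of PI3K (chromosome 3, 32397671 to 32468486, plus strand). It was at 4.34, 3.61, 5.22, 4.99 and 4.11 FPKM in vehicle hearts 1 to 5 and at 4.43, 3.78, 4.96, 4.14 and 4.28 FPKM in MEKi-treated hearts 1 to 5. The MEKi-treated hearts all lay between the lowest and the highest vehicle heart. The log2 difference was -0.04 (SE 0.12, 95% interval -0.30 to 0.22, adjusted p = 0.961 with limma), and its sign was positive on a TPM scale and with array weights.

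*Pik3r1* encodes the alpha regulatory subunit, which stabilizes and restrains the catalytic one (chromosome 13, 101680563 to 101768217, minus strand). It was at 3.73, 4.05, 6.73, 4.35 and 3.79 FPKM in vehicle hearts, and at 4.75, 4.62, 4.28, 5.71 and 4.38 FPKM in MEKi-treated hearts. Vehicle heart 3 stood apart from the other vehicle hearts, and the remaining 4 reached at most 4.35 FPKM. The log2 difference was 0.09 (SE 0.16, 95% interval -0.25 to 0.44, adjusted p = 0.925 with limma).

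The ratio of *Pik3r1* to *Pik3ca* on the log2 scale was -0.00085 ± 0.256 in vehicle and 0.135 ± 0.258 in MEKi-treated hearts, a difference within the spread of either group. Among the class I catalytic genes, *Pik3ca* took 57.7% of the summed FPKM in vehicle and 62.0% in MEKi-treated hearts, *Pik3cb* 20.5% and 20.4%, *Pik3cd* 16.9% and 13.1%, and *Pik3cg* 4.82% and 4.50%. *Pik3r1* took 35.2% and 39.2% of the class IA regulatory transcripts, below *Pik3r2* at 51.1% and 49.4%. The genes most like *Pik3ca* were *Kdm4b* (r = 0.90) and *Cbx1* (r = 0.89), and a gene much like *Pik3r1* was *Abra* (r = 0.97).

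Of the 12 PI3K subunit genes tested, 8 were below 0 and 4 above (median, -0.08), with 0 called by limma and 2 at an unadjusted p under 0.05. Among all genes tested 52.1% were above 0 and 7.62% had such a p. *Pik3cd*, which encodes the catalytic subunit found mainly in leukocytes, was at 1.38, 1.23, 0.933, 1.32 and 1.58 FPKM in vehicle hearts, and at 0.858, 1.13, 1.07, 0.795 and 0.702 FPKM in MEKi-treated hearts. Its log2 difference was -0.46 (adjusted p = 0.569 with limma), beside the lower macrophage markers given above. The 2 lymphocyte markers tested were also below 0 (median, -0.28), as were 6 of 8 endothelial markers (median, -0.11), with 0 called. The part of any of these cells in the *Pik3cd* values was not tested. *Pik3c2b*, a class II PI3K gene, was at 1.89, 1.74, 2.10, 1.97 and 1.84 FPKM in vehicle hearts, and at 2.65, 2.33, 2.35, 2.45 and 2.41 FPKM in MEKi-treated hearts. Here each MEKi-treated heart was above each vehicle heart, as for 0.794% of all genes tested. The log2 difference was 0.34, with an adjusted p of 0.413 with limma. *Pik3r3* had a log2 difference of -0.27 (adjusted p = 0.733 with limma), and of -0.13 without vehicle heart 5.

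**Figure D3:**
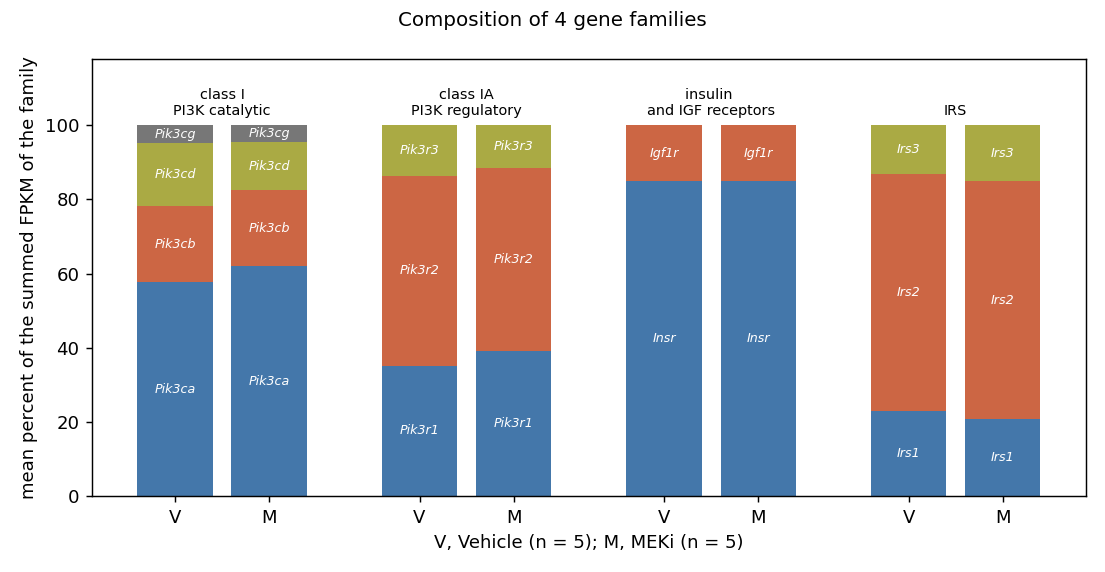
Mean percent of the summed FPKM of each family that each gene took in vehicle (V) and MEKi-treated (M) hearts, 5 hearts per bar. *Insr*, *Irs2* and *Pik3ca* lead their families and *Pik3r2* leads the regulatory subunits in both groups.

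*Akt1* encodes the most widely expressed AKT kinase, with roles in growth and survival (chromosome 12, 112653821 to 112674884, minus strand). It was at 38.8, 47.8, 61.3, 45.2 and 33.5 FPKM in vehicle hearts 1 to 5 and at 59.1, 52.2, 44.9, 45.9 and 54.2 FPKM in MEKi-treated hearts 1 to 5. The vehicle hearts included both the highest and the lowest value. The means were 45.3 ± 10.5 and 51.2 ± 5.92 FPKM, and the log2 difference was 0.20 (SE 0.15, 95% interval -0.13 to 0.53, adjusted p = 0.795 with limma).

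*Akt2* encodes the AKT kinase most closely tied to insulin-stimulated glucose uptake (chromosome 7, 27591552 to 27640826, plus strand). It was at 24.5, 23.0, 19.3, 21.0 and 19.0 FPKM in vehicle hearts, and at 23.9, 22.1, 22.4, 24.2 and 26.8 FPKM in MEKi-treated hearts. Each MEKi-treated heart was above the vehicle median and 1 was above every vehicle heart. The means were 21.4 ± 2.38 and 23.9 ± 1.86 FPKM, with a log2 difference of 0.16 (SE 0.096, 95% interval -0.05 to 0.37, adjusted p = 0.728 with limma). With 1955 to 3080 fragments per heart, *Akt2* had the narrowest interval of the 9 genes.

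*Akt2* was the lower of the pair in every heart, with a log2 ratio to *Akt1* of -1.06 ± 0.383 in vehicle and -1.10 ± 0.165 in MEKi-treated hearts. *Akt1* was most like *Cdc37l1* (r = 0.99) and the muscle gene *Trim55* (r = 0.98), and 72 genes had an r above 0.9 with it, against 1 for *Igf1* and 1 for *Pik3ca*. *Akt2* was most like *Zbtb42* (r = 0.96) and *Abhd6* (r = 0.95).

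**Figure D4:**
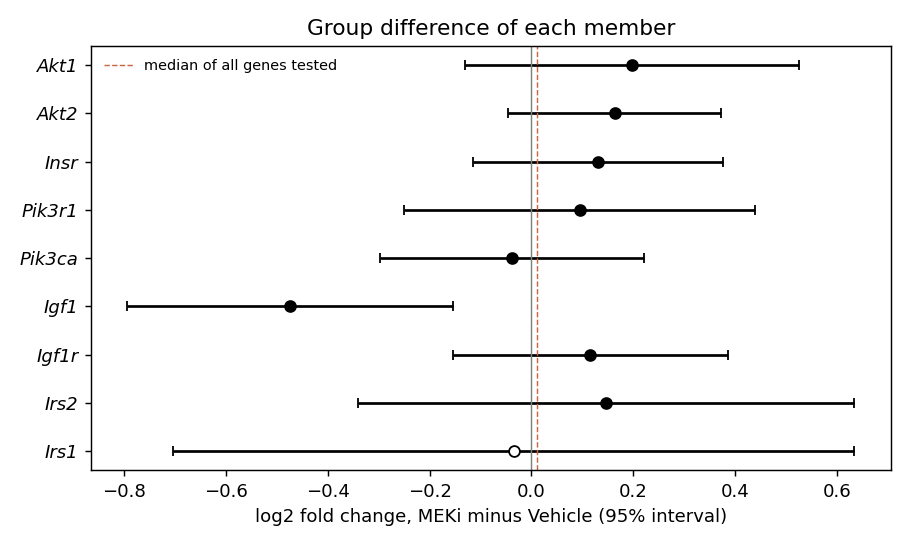
Log2 fold change of each of the 9 genes, MEKi minus vehicle, with bars of the 95% interval (n = 5 hearts per group). The open circle is *Irs1*, fitted with genes of any level. Only the interval of *Igf1*, from -0.79 to -0.15, leaves out 0, and its adjusted p was 0.461.

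Vehicle heart 3 bore on several of these differences. It was the highest of the 10 hearts for 7 of the 9 members (*Insr*, *Igf1r*, *Irs1*, *Irs2*, *Pik3ca*, *Pik3r1* and *Akt1*), for 25 of the 121 other pathway genes tested and for 17.1% of all genes tested. It was the lowest heart for 16.9% of all genes tested. It also had the largest mitochondrial share of fragments. Without it, the log2 difference was 0.31 for *Akt1*, 0.24 for *Pik3r1* and 0.22 for *Insr*, with adjusted p of 0.449, 0.490 and 0.449 with limma, and the median of the 8 members was 0.19. Since this heart was the highest for these genes, leaving it out raises their differences in any case. Leaving out each heart in turn gave 0.097 to 0.31 for *Akt1*, 0.027 to 0.24 for *Pik3r1* and 0.085 to 0.22 for *Insr*. The part of RNA quality or depth in the values of this heart was not tested.

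Short stretches before *Akt1* and *Pik3ca* are shown because they hold the only matches to motifs that relate to the signaling examined. Active AKT keeps FOXO factors out of the nucleus, and AP-1 factors are induced through the MAPK pathway that MEK belongs to. The FOXO core searched was GTAAACA, or TGTTTAC on the other strand, and the AP-1 motif was TGAGTCA, or TGACTCA on the other strand, which do not overlap each other here. Of the 13 member windows 1 held the FOXO core and 1 the AP-1 motif, beside 3.17% and 4.46% of all 32851 windows. The matches are in capitals, the *Akt1* stretch at chr12:112675028-112675056 on the minus strand and the *Pik3ca* stretch at chr3:32396957-32396985 on the plus strand:
Akt1: atctaccctctTGTTTACactcctggtga
Pik3ca: cgcaggcgcagTGAGTCActgttcccgaa

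These are matches of letters in 250 bases and not measured binding sites. Neither gene was called between the groups.

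Beyond the members, the pathway was described with a list of 138 other genes, of which 121 were tested. Of these 73 were above 0 and 48 below (median, 0.08), with 0 called by limma, 19 at an unadjusted p under 0.05 (14 above and 5 below 0) and 3 without overlap between the groups. These are 15.7% and 2.48% of the 121 genes, beside 7.62% and 1.64% of all genes tested. The list was drawn up with earlier results of these data known, so these shares describe the listed genes only. The lowest adjusted p was 0.273, for *Pdk4*. The numbers of genes above and below 0 follow for each role, with members counted where they belong, beside 52.1% of all genes tested above 0.

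For the AKT and upstream kinase genes and for the inhibitor genes, the values were centred close to 0. The receptors gave 3 above and 0 below 0 among 3 tested (median, 0.13), with 0 called and 0 at an unadjusted p under 0.05. The median of the receptor adaptors was 0.19, as given above. The 11 AKT and upstream kinase genes gave 5 above and 6 below 0 (median, -0.06) with 0 called and 1 at an unadjusted p under 0.05, *Sgk1*. *Sgk1*, an AKT-related kinase gene induced by corticosteroids, was at 8.98, 10.5, 9.45, 15.2 and 15.2 FPKM in vehicle hearts, and at 9.12, 8.84, 8.28, 7.09 and 6.18 FPKM in MEKi-treated hearts. Of the MEKi-treated hearts 4 were below every vehicle heart, and the log2 difference was -0.56 (SE 0.17, adjusted p = 0.463 with limma). The highest for *Sgk1*, vehicle hearts 4 and 5, had *Myl7* at 615 and 258 FPKM and the red cell gene *Hba-a1* at 7014 and 9642 FPKM. MEKi heart 2, with *Myl7* at 519.5 and *Hba-a1* at 1715 FPKM, had *Sgk1* at 8.84 FPKM. The part of atrial tissue or blood in the *Sgk1* values was not tested. The 17 inhibitor genes gave 10 above and 7 below 0 (median, 0.02), with 0 called and 1 at an unadjusted p under 0.05, *Socs3*, at -0.47 (adjusted p = 0.652 with limma). *Trib3*, an AKT-binding pseudokinase gene of the stress response, had a log2 difference of 0.90 that rested on MEKi heart 5, and without this heart it was 0.26. *Pik3ip1*, an inhibitor of PI3K, stood at 0.22 (adjusted p = 0.712 with limma).

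Downstream, the 17 AKT substrate and glucose uptake genes gave 11 above and 6 below 0 (median, 0.09), with 0 called and 2 at an unadjusted p under 0.05, *Slc2a1* and *Gsk3a*. *Slc2a1*, which encodes the basal glucose transporter GLUT1, was at 4.66, 3.30, 4.63, 3.67 and 4.10 FPKM in vehicle hearts, and at 5.39, 5.24, 5.05, 5.34 and 5.55 FPKM in MEKi-treated hearts. Each MEKi-treated heart was above each vehicle heart, as for 0.794% of all genes tested. The log2 difference was 0.39 (SE 0.11, adjusted p = 0.401 with limma). *Gsk3a*, a kinase that AKT inhibits, had a log2 difference of 0.32 (adjusted p = 0.567 with limma), and *Tbc1d1*, a regulator of glucose transporter traffic, one of -0.29 (adjusted p = 0.802 with limma). The 22 mTORC1 and translation genes gave 12 above and 10 below 0 (median, 0.03), with 0 called and 1 at an unadjusted p under 0.05. That gene, *Rheb*, the GTPase that activates mTORC1, was named after its values were seen and had a log2 difference of 0.27 (adjusted p = 0.522 with limma). *Eif4ebp1*, a translation repressor gene, stood at 0.36 (adjusted p = 0.669 with limma), *Sesn2* at 0.48 (adjusted p = 0.786 with limma, and 0.10 without MEKi heart 5) and *Sesn1* at 0.28 (adjusted p = 0.744 with limma).

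Transcripts known as FOXO targets were mostly above 0, with the largest exception in *Pdk4*. Of 23 genes tested, *Insr* and *Irs2* among them, 19 were above 0 and 4 below (median, 0.16), with 0 called and 5 at an unadjusted p under 0.05. Over all genes tested, 52.1% were above 0 and 7.62% had such a p. *Pdk4*, which encodes the kinase that restrains pyruvate oxidation, was at 24.5, 26.1, 33.6, 55.8 and 32.3 FPKM in vehicle hearts, and at 16.5, 13.4, 23.4, 17.9 and 15.0 FPKM in MEKi-treated hearts. Each MEKi-treated heart was below each vehicle heart, as for 0.849% of all genes tested. The log2 difference was -0.95 (SE 0.22, adjusted p = 0.273 with limma). The other 4 were above 0, *Gadd45a* at 0.68, *Bcl2l11* at 0.58, and *Trim63* at 0.40 and *Cited2* at 0.26, the last pair named after their values were seen, with adjusted p of 0.521, 0.461, 0.481 and 0.545 with limma. *Trim63* encodes a muscle ubiquitin ligase and *Bcl2l11* a pro-apoptotic BCL2 family member.

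The 10 tested transcripts that insulin induces through SREBP gave 6 above and 4 below 0 (median, 0.07), with 0 called and 1 at an unadjusted p under 0.05. *Scd1* and *Scd2*, desaturase genes, had log2 differences of -0.28 and 0.27 with adjusted p of 0.911 and 0.820 with limma. Both rested on single hearts, since *Scd1* stood at -0.66 without MEKi heart 2 and at -0.0099 without vehicle heart 4, and *Scd2* at 0.091 without MEKi heart 2.

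**Figure D5:**
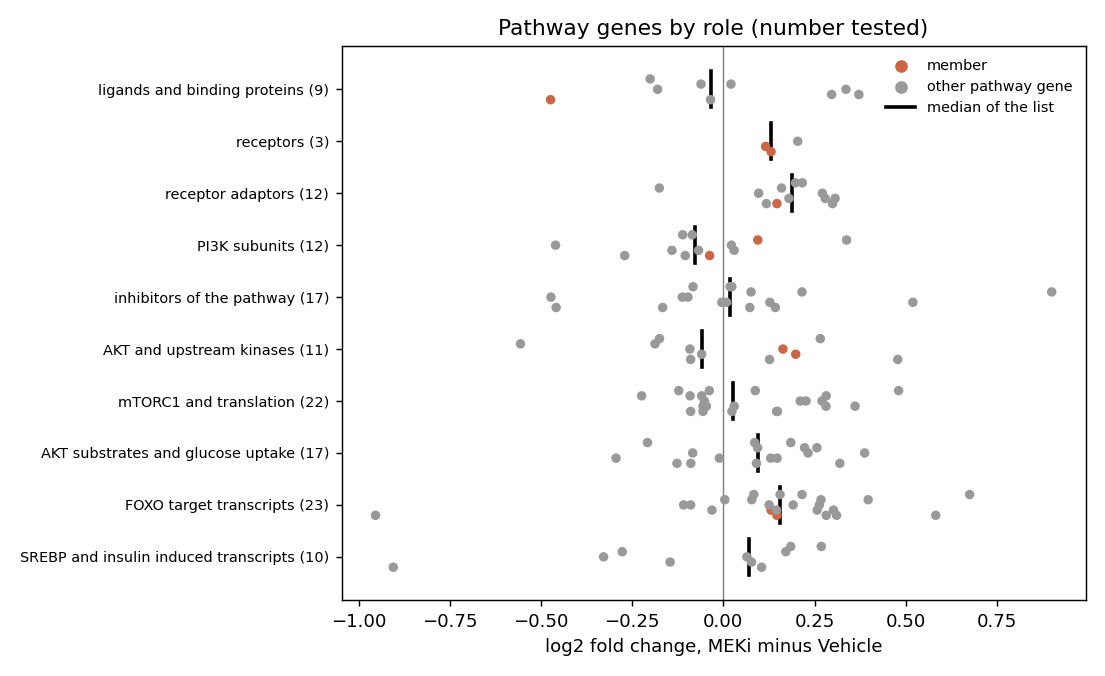
Log2 fold change, MEKi minus vehicle, of every tested gene of each pathway list, with members in orange, other genes in grey and a line at the median of the list. The number tested stands in parentheses. Medians run from -0.08 for PI3K subunits to 0.19 for receptor adaptors, and no gene shown was called.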

How the data were processed

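RNA-seq was performed on 10 *Rit1* M90I/+ hearts, 5 per group, and samples were grouped by the treatment in their labels. The authors deposited FPKM per gene in 1 table, and the submitters' processing notes name fastp, STAR 2.5, HTSeq 0.6.1 and mm10, with no role or order. All 9 members have the coordinates of GENCODE M21 (GRCm38), as do 98.3% of the 54409 genes with an identifier there. Multiplied by gene length, 100% of the deposited FPKM were whole multiples of a step per heart (within 0.01 of a fragment), which gave the fragments. Intervals of single counts are not given, and depth covers counting error only.

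Values were compared as log2(FPKM + 0.1), which understates differences of low genes, with limma 3.58.1 (R 4.3.3, eBayes with a trend), two-sided, for the genes averaging 0.5 FPKM or more across hearts, with Benjamini-Hochberg adjustment over all genes tested and a threshold of 0.05. The labels call the hearts of a group biological replicates, and p-values measure the spread between them. The script was tested on simulated data. Tables and plots were made with Python 3.11.15, numpy 2.4.6, pandas 2.3.3 and matplotlib 3.10.9.

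The members and gene lists were chosen with earlier results of these data known, so no p was adjusted over a list and no list was tested as a set. The genes named are the members, their paralogs, up to 3 genes per list with the largest absolute change among those with a mean of at least 1 FPKM, and the 2 genes most like each member by Pearson r after group means were subtracted, apart from a few genes that are not reported here. Genes overlapping the members in the annotation had at most 12 fragments in any heart. The 21 alternatives were pseudocounts of 1 and 0.01, no filter, a mean of at least 5 FPKM, quantile normalization, a TPM scale, eBayes without a trend, voom on the recovered fragments, array weights, a replicate block, leaving out X, Y and mitochondrial genes, and leaving out each heart in turn.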

Additional observations from a re-analysis of the deposited data

Results flagged for a closer look

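For the members and the pathway genes named, 84 groups of 5 hearts were examined. Of these, 7 had a heart whose gap to the nearest other heart was large against the range of its group. The figure computed for chance, about 4.2, takes no account of how the genes were chosen. Pathway genes were named for large changes, which a single heart can produce, and all were measured in the same hearts. The log2 difference of *Trib3*, for example, fell from 0.90 to 0.26 without MEKi heart 5. The count of 7 can therefore not be weighed against 4.2. Among the members, *Igf1* was at 2.35 FPKM in vehicle heart 1, where the next vehicle heart had 1.92 FPKM, and *Pik3r1* was at 6.73 FPKM in vehicle heart 3, where the next had 4.35 FPKM. *Pik3r3* was at 2.52 FPKM in vehicle heart 5, with 1.62 FPKM in the next. The stress-induced genes *Trib3* and *Sesn2* stood apart in MEKi heart 5, at 25.5 FPKM against 3.21 and at 4.10 FPKM against 1.13 in the next heart. The desaturase genes *Scd1* and *Scd2* stood apart in MEKi heart 2, at 20.5 FPKM against 6.32 and at 7.77 FPKM against 4.70, and *Adipoq*, an adipocyte marker, was at 6.84 FPKM in this heart and at 0.405 to 1.66 FPKM in the other MEKi-treated hearts. The part of fat tissue in these values was not tested.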

How the results depend on the processing

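No member tested was called under any of the 21 alternatives, of which the mean of at least 5 FPKM tested 3 members, no filter 9, *Irs1* included, and the others 8. Over all genes tested 10 were called, 2 with a mean of at least 5 FPKM, 18 with array weights and 5 to 13 when a heart was left out. Without X, Y and mitochondrial genes 0 of 12178 genes were called by limma, with 924 at an unadjusted p under 0.05. With the replicate number as a block 4 were called. The labels do not say that a number marks a shared litter or batch, and same-numbered hearts did not deviate together (correlations from -0.154 to -0.021, 0 of 5 hearts best with its own number), so the numbers were not taken as pairs. The sign turned for *Irs2* without a vehicle heart (vehicle heart 4, with a range of -0.011 to 0.29 when a heart was left out) and for *Pik3ca* on a TPM scale (0.040), with array weights (0.011) and when a heart was left out (-0.11 to 0.022). The list median moved on the TPM scale to 0.27 for adaptors and 0.095 for inhibitors, and with a mean of at least 5 FPKM to 0.052 for AKT and upstream kinases, 0.18 for mTORC1 genes and -0.13 for fibroblast markers. Leaving out a heart took it from -0.0568 to 0.047 for AKT and upstream kinases, the latter without vehicle heart 2. The causes of these moves were not tested. The TPM scale multiplies all genes of a heart by the same factor, and it moved the median of all genes from 0.01 to 0.09. *Irs1* rested on the fewest fragments, 33 to 92 per heart.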
